A study of Mus musculus with 21 samples.

Results

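Acute phase proteins and metallothioneins were followed in hearts of adult mice that lack Notch3 and in control hearts. The members are 10 genes listed by name, namely Saa1, Saa2, Saa3, Hp, Hpx, Orm1, Itih4, Lcn2, Mt1 and Mt2, and all 10 were found by their Ensembl identifiers among the 46517 genes of the counts table. Bulk RNA-sequencing of polyadenylated RNA covered the frozen left ventricle of 4 control (Notch3+/+) and 3 Notch3-/- mice on the C57BL/6J background. Each mouse gave 3 technical libraries, for a total of 21. The animals received no treatment, were 10 to 14 months old, and their sex is not stated. The Notch3-/- mice carry lacZ inserted into the Notch3 locus in every cell of the body, so the null allele is not restricted to the heart. Labels of 2 control mice begin with X (control mice 1 and 2), and labels of all other mice begin with k. What these letters stand for is not given in the sources used here, and all mice labelled X are controls.

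The acute phase response is a change in the set of proteins that the liver secretes after injury or infection. Interleukin 6, acting through STAT3 and C/EBP factors, and interleukin 1, acting through NF-kappaB, switch on genes such as serum amyloid A, haptoglobin and hemopexin in hepatocytes, whereas lipocalin 2 and Saa3 are also made by epithelial cells, macrophages and other cells outside the liver. Metallothioneins are small cysteine-rich proteins that bind zinc and copper. Their genes are active in most tissues, the heart included, and are induced by zinc through the metal-responsive factor MTF1 and by glucocorticoids.

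In GRCm38, the serum amyloid genes lie close together on chromosome 7. Saa1 (ENSMUSG00000074115) is at chr7:46740497-46742980 on the minus strand, Saa2 (ENSMUSG00000057465) at chr7:46751790-46754313 on the plus strand and Saa3 (ENSMUSG00000040026) at chr7:46711998-46715700 on the minus strand. Mt2 (ENSMUSG00000031762, chr8:94172664-94173568) and Mt1 (ENSMUSG00000031765, chr8:94179082-94180327) are neighbours on the plus strand of chromosome 8. Hp (ENSMUSG00000031722) is at chr8:109575128-109579172 and Hpx (ENSMUSG00000030895) at chr7:105591613-105600137, both on the minus strand. Orm1 (ENSMUSG00000039196) is at chr4:63344560-63348163 and Itih4 (ENSMUSG00000021922) at chr14:30886476-30902353, both on the plus strand, and Lcn2 (ENSMUSG00000026822) is at chr2:32384633-32388252 on the minus strand. Some members have near-identical copies. Of the 51-base windows in Saa1 transcripts 30.6% also occur in Saa2, and of those in Orm1 20% occur in Orm2. The antisense gene Gm45774 covers 432 exon bases of Mt2, and 45.2% of the Mt2 windows are shared with it. Gm45774 has no entry in the counts table, so no count there was assigned to it. How the authors assigned reads to such copies, and whether strand was used, is not given in the sources used here, so counts of Saa1, Saa2, Orm1 and Mt2 are uncertain to that extent.

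Promoters of 8 members were in the RefSeq promoter table (GRCm38.p6), and Hp and Orm1 are named only. Those of the metallothionein pair and of the Saa1 and Saa2 pair are shown because the members of each pair are neighbours and were high in the same mice. Motifs were searched in the 250 bases before the RefSeq start. The printed stretch ends before the annotated start of the gene in GENCODE, which leaves out the last 7 bases for Mt1 and 43 for Saa2. Capitals mark matches to the core of the metal response element, searched as TGCACNC or TGCGCNC on both strands, in Mt1 (chr8:94178839-94179081, plus strand) and Mt2 (chr8:94172368-94172617, plus strand), and matches to a C/EBP pattern, searched as TTGCNNAA on both strands, in Saa1 (chr7:46742981-46743230, minus strand) and Saa2 (chr7:46751583-46751789, plus strand).
Mt1: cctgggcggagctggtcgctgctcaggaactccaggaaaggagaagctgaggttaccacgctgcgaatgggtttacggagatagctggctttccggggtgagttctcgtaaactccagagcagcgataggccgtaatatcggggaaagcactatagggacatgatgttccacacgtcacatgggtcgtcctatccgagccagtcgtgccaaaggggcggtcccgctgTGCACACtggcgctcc
Mt2: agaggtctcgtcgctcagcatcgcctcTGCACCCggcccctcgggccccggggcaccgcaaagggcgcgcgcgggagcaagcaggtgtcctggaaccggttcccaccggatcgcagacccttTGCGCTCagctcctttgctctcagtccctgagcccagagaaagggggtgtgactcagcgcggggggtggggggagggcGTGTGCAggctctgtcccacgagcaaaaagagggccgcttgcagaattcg
Saa1: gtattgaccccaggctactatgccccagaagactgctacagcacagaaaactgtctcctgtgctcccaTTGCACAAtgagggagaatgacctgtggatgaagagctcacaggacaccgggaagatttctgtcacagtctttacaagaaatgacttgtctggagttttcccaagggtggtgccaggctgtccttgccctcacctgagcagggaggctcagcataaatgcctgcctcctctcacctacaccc
Saa2: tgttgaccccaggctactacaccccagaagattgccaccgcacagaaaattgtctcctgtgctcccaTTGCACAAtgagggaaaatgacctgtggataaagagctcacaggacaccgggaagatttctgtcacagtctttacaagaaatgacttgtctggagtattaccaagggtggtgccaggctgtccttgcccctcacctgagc

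The metal response core had 1 match in the Mt1 window, 3 in the Mt2 window and none in the other 6 promoters. Of all 32851 promoter windows of this length, 21.4% held at least 1 match and 1.26% held 3 or more. With the 50 bases after the start included, the counts were 3 in Mt1 and 4 in Mt2, and 1.97% of windows of that length held 3 or more. Of the GENCODE transcripts of Mt1, those that begin inside the gene start 122 and 152 bases after the RefSeq start. The GENCODE transcripts of Mt2 start 46 and 242 bases after its RefSeq start. Even with the 50 bases after the start included, the windows end before the starts at 122, 152 and 242 bases. The sequence just before those 3 starts was thus not searched in full, and the match counts describe the RefSeq starts only. The C/EBP pattern had 1 match each in Saa1, Saa2, Saa3, Hpx, Lcn2 and Mt2, and 9.56% of all windows held one. The Saa1 and Saa2 windows differ by only 13 single-base edits, whereas the Saa1 and Saa3 windows differ by 130. A STAT pattern (TTCNNNGAA) had 1 match in Itih4 (7.02% of windows), a glucocorticoid receptor pattern (ACANNNTGT) 1 match each in Mt1 and Lcn2 (5.84%), and an NF-kappaB consensus no match in the 8 promoters (3.9%). No matches to different patterns overlapped in these promoters. A match is a string of letters and was not tested for binding.

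Totals per mouse were 3091461, 4638786, 4208205 and 3046326 counts for control mice 1 to 4. Those of Notch3-/- mice 1 to 3 were 3828763, 5167869 and 5086740 counts. Levels are given as counts per 1000000 counts (CPM) after TMM scaling, which corrects for library size and composition. Notch3, the targeted gene, was at 57.3, 42.1, 57.6 and 61.8 CPM across the control mice and at 6.01, 7.57 and 4.73 CPM in Notch3-/- mice, and each Notch3-/- mouse was below every control mouse. Its log2 fold change was -3.16 ± 0.23 (SE; FDR 0.00173, edgeR's quasi-likelihood fit to all genes), lower in 3 of 3 Notch3-/- mice. It was the only gene called among 14324 tested, where called means a false discovery rate (FDR, by Benjamini-Hochberg) under 0.05 and a fold change of at least 1.5.

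Of the members, the acute phase proteins that hepatocytes secrete were high in Notch3-/- mice 1 and 2 and not in Notch3-/- mouse 3. Hpx, which encodes the haem scavenger hemopexin, was at 2.63, 9.69, 0.471 and 0.668 CPM across the control mice and at 411, 894 and 6.997 CPM in Notch3-/- mice 1 to 3. Itih4, a heavy chain of the inter-alpha-trypsin inhibitor family, was at 0.988, 5.48, 1.41 and 3.34 CPM across the control mice and at 382, 887 and 4.73 CPM in Notch3-/- mice. For both genes Notch3-/- mice 1 and 2 stood far above every control mouse, while Notch3-/- mouse 3 lay below control mouse 2, so the groups overlapped. Hp, which encodes the haemoglobin-binding haptoglobin, was at 16.1, 3.16, 0.706 and 1.34 CPM across the control mice and at 178, 507 and 2.84 CPM in Notch3-/- mice. Here control mouse 1 was the highest control, and Notch3-/- mouse 3 lay among the controls. Orm1, which encodes the plasma glycoprotein orosomucoid, had 0, 0, 1 and 0 counts across the control mice and 165, 473 and 2 in those without Notch3. The groups did not overlap in CPM, but that rests on 2 counts in Notch3-/- mouse 3 against 1 in control mouse 3.

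**Figure D1:**
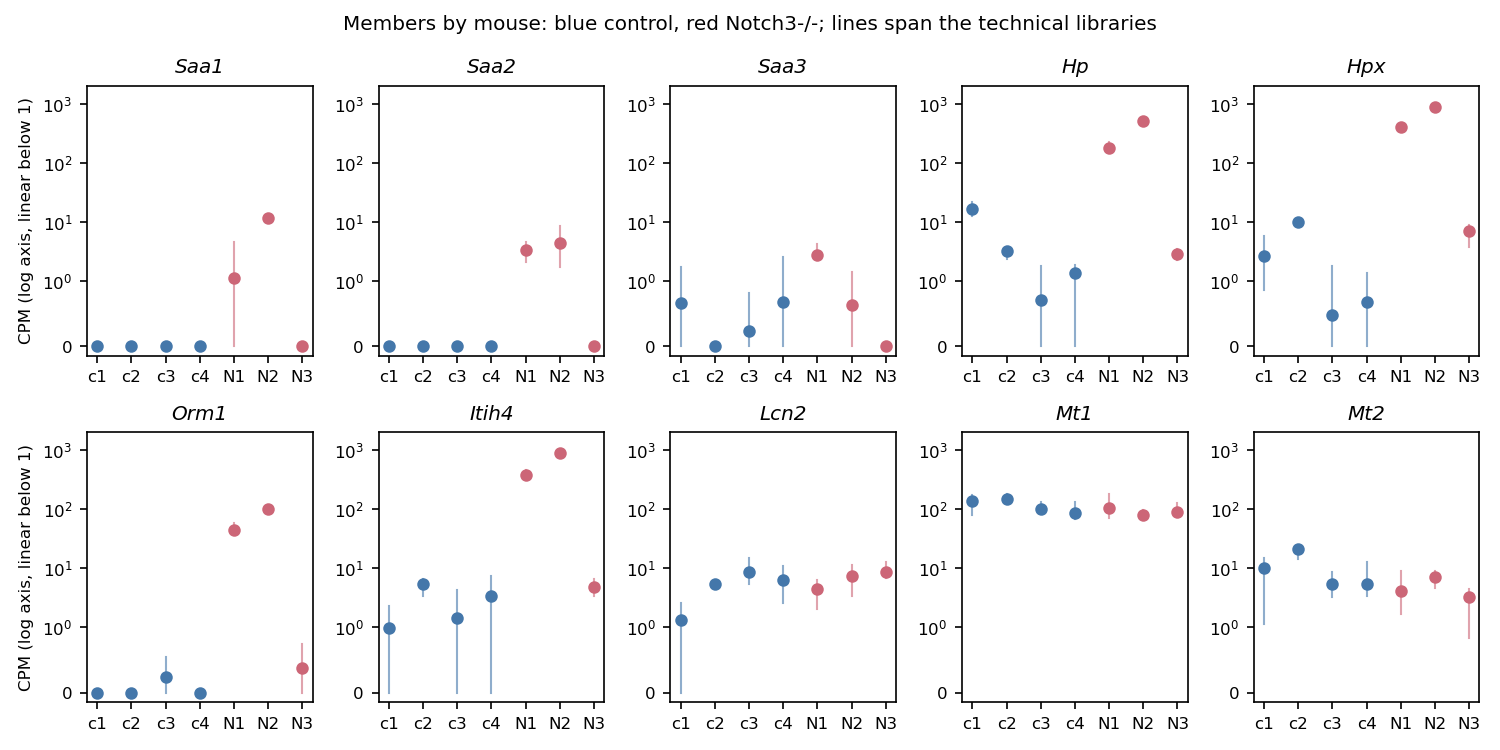
CPM of each member in each mouse on a log axis that is linear below 1, with control mice 1 to 4 (c1 to c4, blue), Notch3-/- mice 1 to 3 (N1 to N3, red) and vertical lines from the lowest to the highest of the 3 technical libraries. Hp, Hpx, Orm1 and Itih4 are high in N1 and N2 alone, while Lcn2, Mt1 and Mt2 overlap between the genotypes.

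The expression filter left 6 of the 10 members in the test (Hp, Hpx, Itih4, Lcn2, Mt1 and Mt2), and Saa1, Saa2, Saa3 and Orm1 did not pass it. EdgeR called none of the 6, where 0.00698% of all genes tested were called. Log2 fold changes were 6.90 ± 1.35 for Hpx (SE, FDR 0.118), 7.17 ± 1.32 for Itih4 (FDR 0.118) and 5.50 ± 1.35 for Hp (FDR 0.176) in edgeR's quasi-likelihood fit to all genes. These 3 had an unadjusted p under 0.05 and were higher on average in Notch3-/- mice, as were 7.34% of all genes, and no tested member was below 0.05 in the other direction (3.05% of all genes). Each of the 3 reached the filter's level in 2 control mice, where 3 mice are needed, so it entered the test only with Notch3-/- mice, where it was high in 2 of 3, and its p is a description. With 1 mouse left out at a time, the log2 fold change of Hpx ran from 5.80 to 8.47. That of Itih4 ran from 6.01 to 7.79 and that of Hp from 4.15 to 6.97. Each was lowest without Notch3-/- mouse 2. No tested member had all 3 Notch3-/- mice above all control mice (4.57% of all genes) or below them (3.96%).

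The calls differed between settings. DESeq2, run on genes that edgeR's filter leaves out as well, called Hp, Hpx, Orm1 and Itih4 higher, 4 of the 9 members with an adjusted p (all but Saa3), where it called 3.37% of the genes with an adjusted p higher. Without Notch3-/- mouse 3, edgeR called these 4 and Saa2 among the 8 members it could test, where 6.02% of all genes were called higher. Saa2 and Orm1, with 0 and 1 counts in the control group, entered that test through the mice where they were high. The number of calls is thus a description of these members. Fitted to every gene with at least 1 count, edgeR called the same 4 members as DESeq2 (2.18% of all genes higher). Limma-voom on the 21 libraries tested Hp, Hpx, Mt1 and Mt2 and called none of them (0.491% of all genes higher, and 0.456% with the technical library number as a replicate block). Without Notch3-/- mice 1 and 2, a setting chosen after seeing the data, 1 Notch3-/- mouse is left, which is assumed to vary like the controls, and edgeR called no member and 1 gene (0.0065%). Since the mice with the high values were removed, this only describes Notch3-/- mouse 3, at log2 fold changes of 0.97 ± 1.01 (SE) for Hpx, 0.71 ± 0.78 for Itih4 and -0.85 ± 1.26 for Hp.

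**Figure D2:**
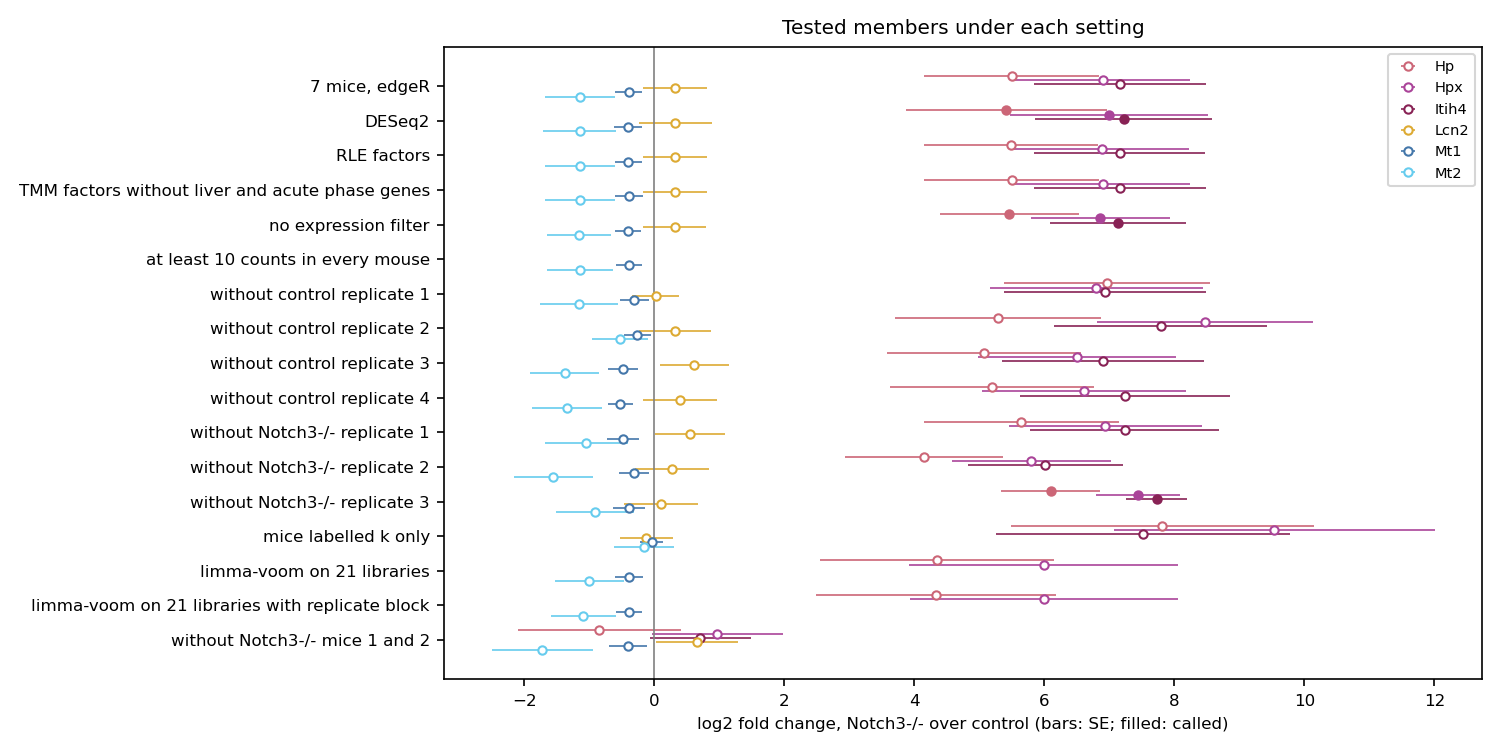
Log2 fold change of the 6 tested members, Notch3-/- over control, with its SE under each setting, where filled points were called. Mt1 and Mt2 come closest to 0 with the mice labelled k only, and the setting without Notch3-/- mice 1 and 2, chosen after seeing the data, removes the mice with high Hp, Hpx and Itih4 and leaves 1 Notch3-/- mouse.

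Markers of hepatocytes moved with these members. The hepatocyte list holds 20 genes that are not members, all in the counts table, and 17 were tested. Its summed level was 55.98, 173, 21.9 and 38.7 CPM across controls and 6424, 11710 and 167 CPM in Notch3-/- mice 1 to 3, so that mice 1 and 2 were high, as for Hpx, Itih4, Hp and Orm1. Alb, which encodes albumin and was the most abundant gene of the list, was at 22.4, 81.1, 2.35 and 10.7 CPM across the control mice and at 1705, 1875 and 66.9 CPM in Notch3-/- mice. No gene of the list was at 0 throughout. Tested genes had a log2 fold change of 6.91 at the median, against -0.003 over all genes tested, and edgeR called none of them. All 17 were higher at an unadjusted p under 0.05 in the edgeR fit, as were 7.34% of all genes tested. DESeq2 called 19 of 20 higher (3.37% of all genes with an adjusted p) and limma-voom 1 of 7 (0.491% of all genes). Since a gene of the list could pass the filter through the mice where it was high, these counts are a description. Tat and Cps1, enzymes of tyrosine breakdown and of the urea cycle, had the largest changes of the list in the edgeR fit (log2 fold changes of 8.77 and 8.13). The part that hepatocyte RNA had in the levels of the members was not tested. In bulk tissue, fewer or more cells of a type and less or more RNA per cell cannot be told apart.

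**Figure D3:**
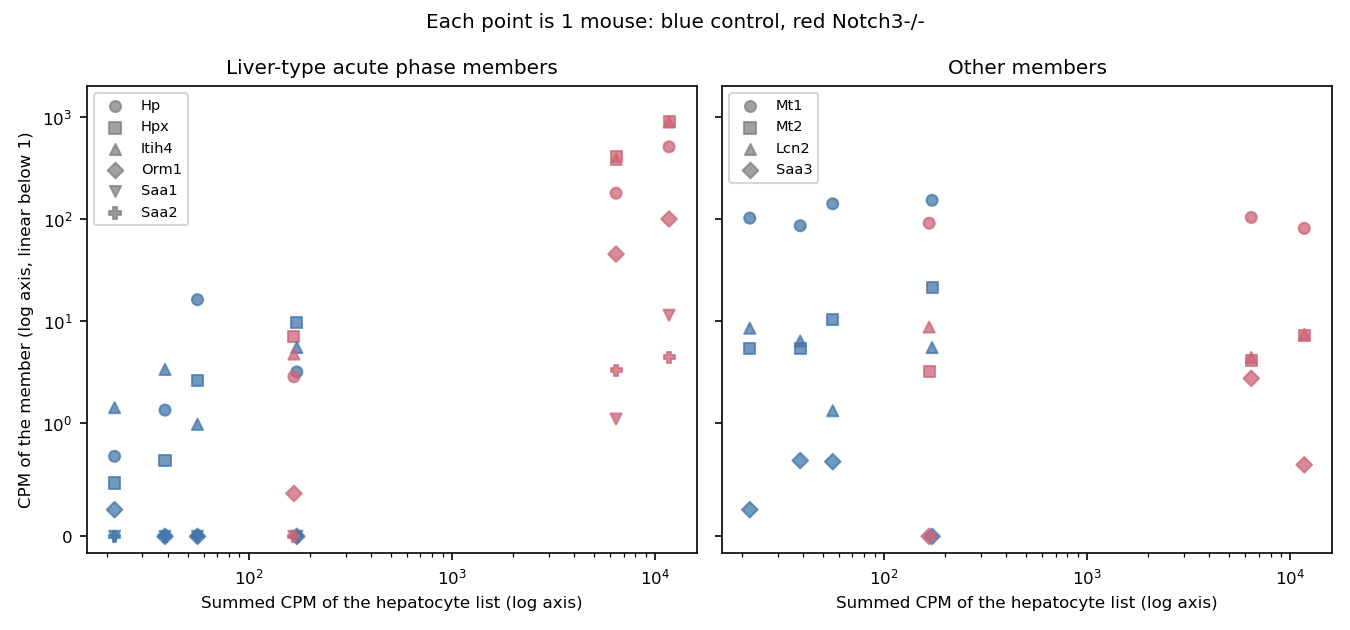
CPM of each member against the summed CPM of the 20 hepatocyte genes, both on log axes (the vertical axis linear below 1), with 1 point per mouse and member (blue control, red Notch3-/-). Hp, Hpx, Itih4, Orm1, Saa1 and Saa2 are highest at hepatocyte sums of 6424 and 11710 CPM, and Mt1, Mt2 and Lcn2 are not.

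Per 1000 counts of the hepatocyte list, Hpx had 63.9, 76.4 and 41.9 counts among Notch3-/- mice 1 to 3, and 17.2 to 56.2 among controls. Itih4 had 59.5, 75.8 and 28.3 in the Notch3-/- mice and 17.6 to 86.2 in control mice. For Hpx the ratios of Notch3-/- mice 1 and 2 were above those of all controls and that of mouse 3 was among them, while for Itih4 all 3 were among them. The 95% exact binomial intervals for Hpx reached 94.85, 75.62, 79.9 and 63.7 in control mice 1 to 4, so counting error alone spans much of this order. The hepatocyte sum itself ran from 21.9 to 11710 CPM. Per 1000 counts of Alb alone, Hpx had 240.9, 476.9 and 104.5 counts in the Notch3-/- mice and 62.5 to 200 in controls. Itih4 had 224.2, 473.2 and 70.62 by this measure in the Notch3-/- mice and 44.12 to 600 in controls. Ratios of control mice rest on few counts, down to 2 for Hpx and 3 for Itih4. Hp had its highest ratio in control mouse 1. It had 288 counts there per 1000 hepatocyte counts (95% exact binomial interval 205 to 398), against 18.3, 32.3 and 34.5 for the other controls, and 27.7, 43.3 and 17.0 for the Notch3-/- mice. Per 1000 counts of Alb, Hp had 720.6 counts in control mouse 1 against 38.96 to 300 in the other controls. The Notch3-/- mice had 42.37 to 270.3 by this measure. All 3 technical libraries of control mouse 1 held Hp, at 12.5 to 21.5 CPM. Control mouse 1 was picked out once its values were known, and intervals cover counting error only.

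Notch3-/- mice 1 and 2 also differed from each other. Hpx was 2.18 times as high in mouse 2 as in mouse 1 (95% exact interval of the counts 2.05 to 2.31), Orm1 2.21 times (1.84 to 2.65), Itih4 2.32 times (2.18 to 2.47) and Hp 2.84 times (2.61 to 3.11). The median of this ratio was 1.90 over the 20 hepatocyte genes, from 1.10 for Alb to 22.3 for Cyp3a11, a drug-metabolizing cytochrome P450. The 28 other acute phase proteins, of which 25 had at least 20 counts in these mice together, had a median ratio of 2.44. Of these 25 only Hamp2 was lower in mouse 2, at a ratio of 0.0897 (0.0597 to 0.130), with 266 counts in mouse 1 and 31 in mouse 2. Its neighbour Hamp, which encodes the iron-regulating hormone hepcidin, had 240 and 471. Hamp, Hamp2 and Cyp3a11 were singled out here after their values were seen. Among genes with 200 or more exon bases, the highest value in any library was 1.97 counts per base, and Alb reached 1.30 and Hpx 0.988 in their highest library.

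**Figure D4:**
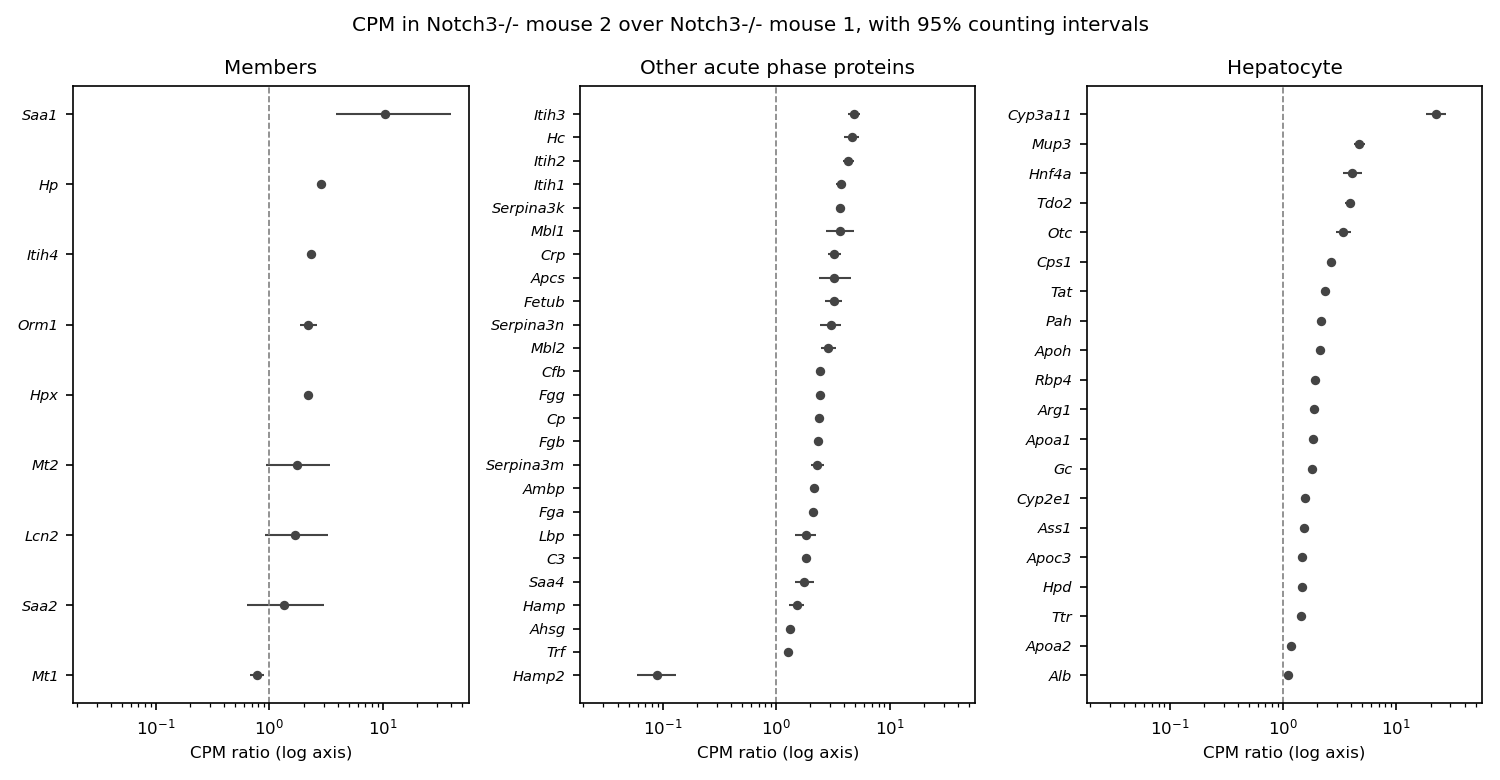
Ratio of CPM in Notch3-/- mouse 2 to CPM in Notch3-/- mouse 1 on a log axis, with 95% exact counting intervals, for genes with at least 20 counts in these mice together, by list. Hp, Hpx, Orm1 and Itih4 lie between 2.18 and 2.84, while Mt1 lies below 1 at 0.782.

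The serum amyloid A members were near the limit of detection. Saa1, an apolipoprotein of high-density lipoprotein that hepatocytes make in the acute phase, had no count in the 4 controls (0 each) and 4, 54 and 0 counts among Notch3-/- mice 1 to 3. Saa2, its near-identical neighbour, had 0 counts in all control mice and 12, 21 and 0 in Notch3-/- mice. Both genes were thus seen only in the mice with high hepatocyte genes. Against a floor of 3 counts over the control group, the pooled Notch3-/- level was at least 21.2-fold higher for Saa1 and at least 12.1-fold higher for Saa2, and neither passed the filter. Without Notch3-/- mouse 2 these bounds were 2.24-fold and 6.72-fold, and without Notch3-/- mouse 3 they were 34.5-fold and 19.6-fold. Saa1 made up 25% of the counts of the pair in Notch3-/- mouse 1 (exact interval 7.27 to 52.4) and 72% in mouse 2 (60.4 to 81.8). All 4 Saa1 counts of mouse 1 came from 1 library, while Saa2 was in all 3. Saa3, which is made mainly outside the liver, had 2, 0, 1 and 2 counts across the control mice and 10, 3 and 0 in Notch3-/- mice. It was highest in Notch3-/- mouse 1, where each technical library held it, and the groups overlapped. The pooled ratio was 2.85 (0.954 to 10.2, counting error only), and 0.898 (0.139 to 4.61) without Notch3-/- mouse 1, so its direction rests on that mouse.

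Mt1 and Mt2 were expressed in every mouse and did not follow the hepatocyte genes. Mt1 was at 140, 152, 102 and 85.5 CPM across the control mice and at 103, 80.6 and 90.6 CPM in Notch3-/- mice. Mt2 was at 10.2, 21.1, 5.41 and 5.34 CPM across the control mice and at 4.10, 7.15 and 3.21 CPM in Notch3-/- mice. For both genes control mouse 2 was the highest and control mouse 1 the next, and control mice 3 and 4 lay within the range of the Notch3-/- mice, so the groups overlapped. Log2 fold changes were -0.39 ± 0.21 for Mt1 (SE, FDR 0.553) and -1.14 ± 0.54 for Mt2 (FDR 0.498) in edgeR's quasi-likelihood fit to all genes, and no tool or setting called either gene. The 2 high control mice are those labelled X. With only the 5 mice labelled k (2 control and 3 Notch3-/-), edgeR called no gene (0%), and the log2 fold changes were -0.04 ± 0.18 for Mt1 and -0.16 ± 0.46 for Mt2 (SE). No Notch3-/- mouse is labelled X, so genotype can be compared within the label k only. The mice labelled X were also the lowest for most mesothelial genes. Over the 7 mice, the mean log2 CPM of the 7 tested mesothelial genes had a Pearson r of -0.922 with Mt1 (Spearman rho -0.786) and -0.802 with Mt2 (rho -0.607), the largest in size among 9 lists compared. The list holds Krt8 and Krt18, keratins that hepatocytes also express and that were highest in Notch3-/- mice 1 and 2. Without them, a choice made after seeing the data, the 5 other tested genes had an r of -0.839 with Mt1 (rho -0.571) and -0.856 with Mt2 (rho -0.857). These are descriptions of points that share mice, and the part of mesothelial cells in the levels of Mt1 and Mt2 was not tested.

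Technical libraries of the same mouse spread widely for Mt1 in some mice. It ran from 70.4 to 183 CPM among the libraries of Notch3-/- mouse 1 and from 79.3 to 176 CPM among those of control mouse 1, against 142 to 180 CPM in control mouse 2. The range was narrower in other mice, as in Notch3-/- mouse 2 at 71.2 to 96.3 CPM. Mt2 ran from 1.15 to 14.6 CPM among the libraries of control mouse 1 and from 3.21 to 21.1 CPM between mice. Mt2 made up 12.2% of the counts of the pair in control mouse 2 (exact interval 10.0 to 14.6), 6.78% in control mouse 1, 5.05 and 5.88% in control mice 3 and 4, and 3.83, 8.15 and 3.43% in Notch3-/- mice.

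**Figure D5:**
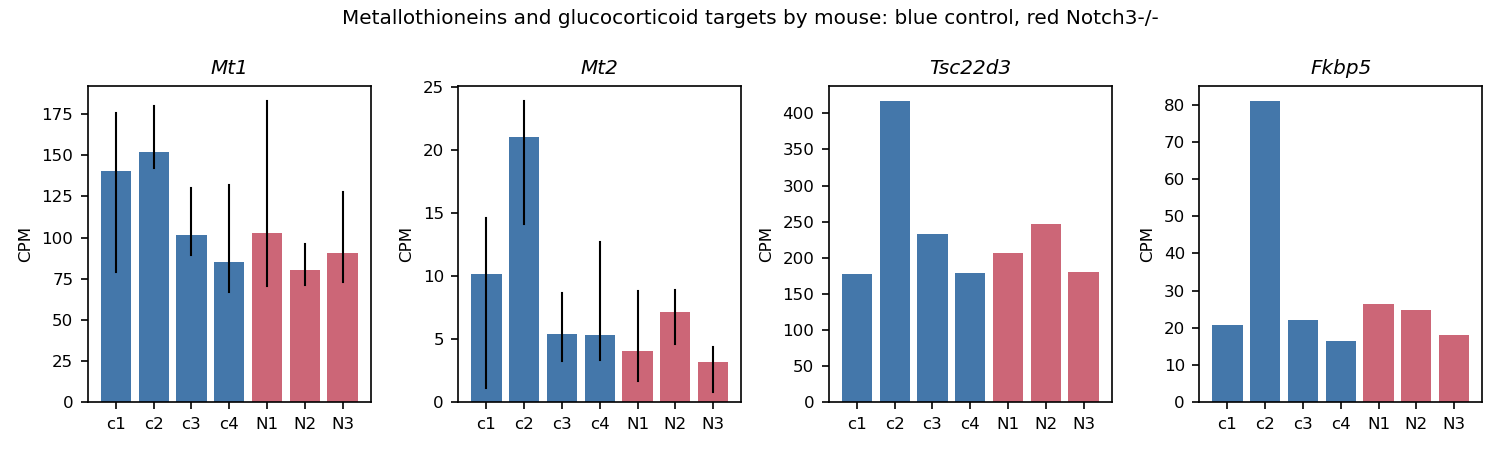
CPM of Mt1, Mt2 and the glucocorticoid targets Tsc22d3 and Fkbp5 for control mice 1 to 4 (c1 to c4, blue bars) and Notch3-/- mice 1 to 3 (N1 to N3, red bars), with black lines over the range of the technical libraries for Mt1 and Mt2. Each gene is highest in control mouse 2, where Fkbp5 reaches 80.9 CPM.

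A list of glucocorticoid targets was looked at beside the metallothioneins. All 13 of that list were tested, none was called by edgeR, and the median log2 fold change was -0.26. At an unadjusted p under 0.05 in that fit, 1 gene was higher and none lower (7.34% and 3.05% of all genes tested). DESeq2 and limma-voom also called none. Fkbp5, a co-chaperone of the glucocorticoid receptor, was at 20.7, 80.9, 22.1 and 16.4 CPM across the control mice and at 26.5, 24.8 and 18.1 CPM in Notch3-/- mice. Tsc22d3, which encodes the leucine zipper protein GILZ, was at 178, 417, 234 and 179 CPM across the control mice and at 207, 246 and 180 CPM in Notch3-/- mice. Control mouse 2, highest for Mt1 and Mt2, was also the highest mouse for 9 of the 13 genes, where it was the highest for 14.1% of all genes tested. Control mouse 1, next to it for both metallothioneins, was the highest for none of the 13 (14.8% of all genes tested). The other 4 were Dusp1, highest in control mouse 4 at 245.5 CPM against 201.3 CPM in control mouse 2, Cdkn1a, highest in Notch3-/- mouse 3, and Nr3c1 and Errfi1, highest in Notch3-/- mouse 2. Cdkn1a and Nr3c1 are named after their values were seen. Errfi1, an inhibitor of EGF receptor signalling, was at 491 CPM in that mouse, 120.5 CPM in mouse 1 and 20.2 CPM in mouse 3, against 32.4 to 70.2 CPM in control mice. Over the 7 mice, the mean log2 CPM of the list had a Pearson r of 0.257 with Mt1 (Spearman rho 0.0714) and 0.626 with Mt2 (rho 0.357). Whether glucocorticoid exposure had a part in the levels of the metallothioneins was not tested.

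Of 26 other genes of zinc and metal handling 20 were tested, none was called by edgeR, and the median log2 fold change was 0.22. At an unadjusted p under 0.05 in the edgeR fit, 6 were higher and none lower (7.34% and 3.05% of all genes tested). DESeq2 called 3 of the 24 with an adjusted p higher (3.37% of all genes with one), and limma-voom none of 18. Slc39a8, an importer of zinc and manganese, was at 2.31, 2.53, 4.00 and 5.68 CPM across the control mice and at 10.4, 20.8 and 10.4 CPM in Notch3-/- mice. All 3 Notch3-/- mice were above all controls, with a log2 fold change of 1.95 ± 0.40 (SE, FDR 0.126, edgeR's quasi-likelihood fit to all genes). The zinc transporter Slc30a4 likewise did not overlap, at 7.17 to 14.3 CPM across controls and 15.1 to 19.8 CPM in Notch3-/- mice (log2 fold change 0.78 ± 0.28, FDR 0.361). Slc39a14, the zinc importer that the acute phase induces in liver, was at 25.3 to 29.1 CPM across the control mice and at 40.2, 62.5 and 28.6 CPM in Notch3-/- mice, again higher in mice 1 and 2. The copper importer Slc31a1 followed the same order, at 64.2 to 82.2 CPM in controls and 104, 186 and 73.7 CPM in Notch3-/- mice. The ferritin heavy chain gene Fth1, the most abundant of the list, was at 568 to 823 CPM across controls and 517 to 674 CPM in Notch3-/- mice. Mt4, a metallothionein of stratified epithelium, had no count in any mouse.

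Lcn2 was low in all mice. This secreted lipocalin, which binds iron-carrying siderophores and is also called NGAL, was at 1.32, 5.48, 8.47 and 6.35 CPM across the control mice and at 4.37, 7.36 and 8.70 CPM in Notch3-/- mice. Control mouse 1 was the lowest, and the groups overlapped. The log2 fold change was 0.32 ± 0.49 (SE, FDR 0.866, edgeR's quasi-likelihood fit to all genes), and it turned to -0.12 with the mice labelled k only. Neutrophils store lipocalin 2 in granules. Of their list, Camp, Mpo, Mmp8 and Ly6g, which define mature granules or the lineage, had no count in any mouse. Detected in all 7 mice were Mmp9 at 1.68 to 8.23 CPM and the calprotectin gene S100a8 at 0.421 to 1.98 CPM. So were the receptor genes Csf3r at 1.48 to 5.68 CPM and Cxcr2 at 1.90 to 4.64 CPM. Ltf, Ngp, Elane, Retnlg and Stfa2l1 had at most 2 counts in any mouse, and S100a9 was at 0 to 1.67 CPM. The list of 14 genes summed to 11.6 to 16.2 CPM across controls and 10.5 to 14.7 CPM in Notch3-/- mice. Of its 3 tested genes edgeR called none, none had an unadjusted p under 0.05, and DESeq2 called none of the 4 with an adjusted p, while limma-voom tested none. Their part in the level of Lcn2 was not tested.

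Mesothelial genes differed between mice as well. Upk3b, a uroplakin of the mesothelial lining, was at 0.329, 0.421, 14.8 and 15.0 CPM across the control mice and at 9.29, 5.26 and 25.2 CPM in Notch3-/- mice. Msln, which encodes mesothelin, was at 0.329, 0.843, 10.6 and 12.02 CPM across the control mice and at 7.11, 5.05 and 42.9 CPM in Notch3-/- mice. Both were close to 0 in the mice labelled X, whereas Lcn2 was low in control mouse 1 alone. Over the 7 mice, Lcn2 had a Pearson r of 0.678 with the mean log2 CPM of the 7 tested mesothelial genes (Spearman rho 0.571). Without Krt8 and Krt18, a choice made after seeing the data, its r was 0.766 (rho 0.75). Wt1, another marker of the lining, was at 9.22 to 14.4 CPM across controls and 10.1 to 18.3 CPM in Notch3-/- mice. Krt8 and Krt18, keratins that hepatocytes also express, were instead highest in Notch3-/- mice 1 and 2, with 37.4 and 175 CPM for Krt8 against at most 1.65 CPM in controls. The 9 genes of the list in the counts table summed to 15.5, 18.3, 57.4 and 65.1 CPM across controls and 99.5, 326 and 122 CPM in Notch3-/- mice. Krt8 was the most abundant in Notch3-/- mice 1 and 2 only, at 4.54 CPM in mouse 3 against 42.9 CPM for Msln. None of the 9 was at 0 in all mice. Of the 7 tested edgeR called none and 2 were higher at an unadjusted p under 0.05 (7.34% of all genes tested). DESeq2 called 2 of the 8 with an adjusted p higher (3.37% of all genes with one), and limma-voom none of 2. The 2 with an unadjusted p under 0.05 were Krt8 and Krt18. Krt8 was below the filter's level in every control mouse, so it entered the test only through Notch3-/- mice. The part of mesothelial cells in the levels of Lcn2, Mt1 and Mt2 was not tested.

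Partners and receptors of the scavenger proteins were present in the heart. Of 14 such genes 11 were tested and none was called by edgeR, with a median log2 fold change of 0.41. In that fit 2 were higher at an unadjusted p under 0.05 (7.34% of all genes tested). DESeq2 called 1 of the 13 with an adjusted p higher (3.37% of all genes with one), and limma-voom none of 10. Lrp1, the receptor that takes up hemopexin with its haem, was at 260, 190, 199 and 213 CPM across the control mice and at 313, 454 and 183 CPM in Notch3-/- mice. It was thus high in mice 1 and 2 and just below the controls in mouse 3, with a log2 fold change of 0.56 ± 0.26 (SE, FDR 0.492, edgeR's quasi-likelihood fit to all genes). Scarb1, a receptor for high-density lipoprotein, was at 40.2 to 65.2 CPM across the control mice and at 70.8, 142 and 60.7 CPM in Notch3-/- mice. The haem oxygenase gene Hmox2 was at 66.5 to 123 CPM across controls and 104 to 115.7 CPM in Notch3-/- mice, and the biliverdin reductase gene Blvra was at 29.2 to 35.2 and 27.3 to 39.4 CPM. The complement protease-like gene C1rl had the largest change of the list, at 1.65 to 6.53 CPM in controls and 21.9, 78.9 and 7.38 CPM in Notch3-/- mice.

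Of the 28 other acute phase proteins, 25 were higher in both Notch3-/- mouse 1 and Notch3-/- mouse 2 than in any control mouse, where 13.6% of all genes tested were. The other 3 were Orm3, seen in Notch3-/- mouse 1 alone, Serpina3n, and A2m, which was highest in control mouse 3 with 16 counts. Orm3 and A2m are named here because their values stood apart. Notch3-/- mouse 3 lay within the control range for 17 of the 28, above it for 10 and below it for 1, against 8420, 2872 and 3032 of all 14324 genes tested. Of the list 13 were tested, edgeR called none, and the median log2 fold change was 5.14. All 13 were higher at an unadjusted p under 0.05 in the edgeR fit (7.34% of all genes tested). DESeq2 called 22 of the 25 with an adjusted p higher (3.37% of all genes with one) and limma-voom 3 of 7 (0.491% of all genes). A gene of this list or of the hepatocyte list could pass the filter through the mice where it was high, so these counts describe the tested genes alone. Summed levels were 707, 571, 544 and 531 CPM across controls and 5767, 11700 and 870 CPM in Notch3-/- mice. Fgb and Fgg, chains of fibrinogen, were at most at 4.64 and 3.37 CPM in control mice, at 307 and 280 CPM in Notch3-/- mouse 1, 723 and 683 CPM in mouse 2 and 5.29 and 3.78 CPM in mouse 3. Serpina3k, a serine protease inhibitor, was likewise highest in mouse 2 and above all controls in mouse 3, whereas for Ambp, the precursor of alpha-1-microglobulin and bikunin, mouse 3 lay below control mouse 2 (3.21 against 4.00 CPM).

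Some acute phase genes were well expressed in control hearts. C3, the central component of complement, was at 334.5, 199, 209 and 245.5 CPM across the control mice and at 859, 1559 and 448 CPM in Notch3-/- mice. All 3 Notch3-/- mice were above all controls, with a log2 fold change of 1.95 ± 0.35 (SE, FDR 0.118, edgeR's quasi-likelihood fit to all genes). Cp, which encodes the copper-carrying ferroxidase ceruloplasmin, was at 131 to 177 CPM across the control mice and at 213, 504 and 178 CPM in Notch3-/- mice, with Notch3-/- mouse 3 next to the highest control. Trf, which encodes the iron carrier transferrin, was at 98.2 to 144 CPM across the control mice and at 1420, 1790 and 130 CPM in Notch3-/- mice. Serpina3n, a protease inhibitor that many tissues induce in inflammation, was at 35.2, 10.1, 13.9 and 19.4 CPM across the control mice and at 31.4, 94.9 and 22.1 CPM in Notch3-/- mice, where only mouse 2 lay above all controls.

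The cytokine and transcription factor genes of the response varied less. Of 25 genes 18 were tested, edgeR called none, and the median log2 fold change was 0.17. In that fit 2 were higher at an unadjusted p under 0.05 (7.34% of all genes tested). DESeq2 called 1 of the 20 with an adjusted p higher (3.37% of all genes with one), and limma-voom none of 16. Stat3, which carries the interleukin 6 signal, was at 284.5, 266, 254 and 261 CPM across the control mice and at 329, 359 and 336 CPM in Notch3-/- mice. All Notch3-/- mice were above all controls, mouse 3 included, with a log2 fold change of 0.36 ± 0.10 (SE, FDR 0.234, edgeR's quasi-likelihood fit to all genes). Il6st, the shared receptor subunit gp130, was at 214 to 247 CPM across controls and 259 to 292 CPM in Notch3-/- mice, also without overlap (log2 fold change 0.20 ± 0.11, FDR 0.564). Socs3, a feedback inhibitor that STAT3 induces, overlapped, at 5.18 to 15.4 CPM across controls and 10.8 to 19.7 CPM in Notch3-/- mice. Cebpa, a factor abundant in hepatocytes, was at 0.988 to 2.95 CPM across the control mice and at 14.2, 29.7 and 1.89 CPM in Notch3-/- mice. Cebpd, which the acute phase induces in many tissues, was at 4.01 to 12.9 CPM across controls and 2.46 to 4.84 CPM in Notch3-/- mice. Interleukin 22 had no count in any mouse.

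Per kilobase of annotated exon, the order of the members differed between mice. In control mice the median was 97.1 CPM per kb for Mt1 and 13.3 for Mt2, followed by 2.25 for Lcn2, 1.40 for Hp, 1.10 for Hpx, 0.644 for Itih4 and 0.1715 for Saa3, with Saa1, Saa2 and Orm1 at 0. Mt1 was above all other members in every control mouse, and Mt2 was next. Ranges of Lcn2, Hp, Hpx and Itih4 over the control mice overlapped, so their order is not distinct from the spread between mice. In Notch3-/- mice 1 and 2 Hpx came first, at 274 and 596.5 CPM per kb, with Hp at 111 and 315.5, Itih4 at 104 and 240.4, Orm1 at 58.2 and 128 and Mt1 at 82.7 and 64.65. In Notch3-/- mouse 3 Mt1 came first at 72.7 CPM per kb and Mt2 next at 5.47. Exon lengths are the union over all annotated transcripts of a gene, so values are low for genes with long, little used models.

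Genes whose log2 CPM followed a member most closely over the 7 mice were ranked among 10728 tested genes with a mean of at least 10 CPM. For Hpx the 5 highest were Apoa5, F2, Agt, Mat1a and Kng1 (Pearson r of 0.996 to 0.997, Spearman rho of 0.964 to 1.0), of which Apoa5, F2, Mat1a and Kng1 were at most at 6.53 CPM in control mice. For Hp they were Cd1d1, Cep170b, Ahr, Ptprf and Gcgr (r of 0.987 to 0.994). For Mt1 they were Abca12, Mef2a, Pde1a, Pla2g5 and Cog6 (r of 0.952 to 0.963), and for Mt2 Carm1, Cep162, Sept10, Rhobtb1 and Serpini1 (r of 0.921 to 0.976). Pla2g5, a secreted phospholipase of cardiac muscle, was at 117, 133, 88.0 and 74.5 CPM across controls and 77.1, 69.8 and 86.2 CPM in Notch3-/- mice, with the mice labelled X highest. For Lcn2 they were Dcun1d1, Eif3a, Tfdp1, Efcab14 and Nif3l1 (r of 0.946 to 0.986), and for Saa3, with 0 to 10 counts a mouse, Spout1, Fam193a, Chadl, Peg3 and Btg1 (r of 0.964 to 0.977). All points share the same 7 mice, and for Hp and Hpx the 2 mice with high hepatocyte genes lie far from the other 5. As the highest of 10728 values over 7 mice, these r are high in part by selection. How high the top 5 would be by chance was not tested.

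Among the members themselves, Hp, Hpx, Orm1 and Itih4 had Pearson r of 0.899 to 0.979 with one another over the 7 mice, and lower Spearman rho of 0.519 to 0.893. Mt1 and Mt2 had an r of 0.765 with each other, with a Spearman rho of 0.464. Mt1 had an r of -0.257 with Hpx and -0.631 with Lcn2, and Lcn2 one of 0.0584 with Hpx. These are descriptions of 7 mice from 2 genotypes.

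Median changes of the lists of other heart cells were small beside those of the liver-type genes. The median log2 fold change was -0.22 for the 10 cardiomyocyte genes, all tested. Ttn, the most abundant, was at 10190 to 13590 CPM across controls and 9153 to 15220 CPM in Notch3-/- mice. The 12 macrophage genes, all tested, had a median of 0.22 and summed to 541 to 649 CPM across controls and 612 to 691 CPM in Notch3-/- mice, with Lyz2 the most abundant at 156 to 212 CPM over all mice. Of the 10 adipocyte genes 4 were tested, with a median of -0.18, and Plin4 was the most abundant. Of the 10 fibroblast genes, all tested, 4 were higher and 1 lower at an unadjusted p under 0.05 in the edgeR fit, with a median of 0.07. Of all genes tested, 7.34% were higher and 3.05% lower by this measure. Col3a1, a fibrillar collagen, was at 206 to 295 CPM across the control mice and at 360, 453 and 526 CPM in Notch3-/- mice (log2 fold change 0.79 ± 0.16, SE, FDR 0.126, edgeR's quasi-likelihood fit to all genes), and Col1a1 at 126 to 167 and 178, 203 and 248.5 CPM (FDR 0.2). For both collagens Notch3-/- mouse 3 was the highest, unlike for Hp, Hpx, Orm1 and Itih4. That mouse lay below all controls for 7 of the 10 cardiomyocyte genes and within their range for 3. Of the 12 macrophage genes 7 were above all controls in it and 5 within their range. Over all 14324 genes tested, 3032 were below and 2872 above all controls in Notch3-/- mouse 3. EdgeR called no gene of these 4 lists. DESeq2 called 2 fibroblast genes higher and limma-voom 1, and neither called a gene of the other 3 lists.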

How the data were processed

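The table deposited by the authors holds counts per gene for 21 libraries of 7 mice, made by the authors from 51-base reads on build mm10 with CASAVA per the submitters' processing notes. The aligner, the use of strand and the handling of duplicates are not given in the sources used here. Technical libraries were summed per mouse (3046326 to 5167869 counts). The 92 ERCC spike-ins, with 34 counts in all, were set aside.

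Genes passing edgeR's filter (minimum count 10, minimum total 15) were TMM-scaled and tested by quasi-likelihood (edgeR 4.0.16, R 4.3.3), with Benjamini-Hochberg adjustment over all genes. A call needed an FDR under 0.05 and a fold of at least 1.5. Alternatives were DESeq2 1.42.0, limma 3.58.1 voom on 21 libraries with mouse as a correlated block, other scaling and filters, leaving out each mouse, and the mice labelled k only. Limma-voom used 1 correlation for all genes, 0.1517 (0.1445 with the replicate block). Technical libraries of a mouse thus counted nearly as separate replicates, and its calls are a description. Removing Notch3-/- mice 1 and 2 was chosen after seeing the data. Methods were tested on simulated data. Intervals are exact (Clopper-Pearson) and cover counting error only.

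The members and the gene lists were chosen with earlier results of these data known. By rule, genes to name within a list were those called, the 4 most abundant in control hearts and the 4 with the largest absolute log2 fold change among those tested, and beside 6 members the 5 genes with the highest Pearson r. The text describes only some of them. Genes without a count in any mouse are named outside this rule. So are Orm2, Orm3, Hamp, Hamp2, A2m, Cdkn1a, Nr3c1, S100a9, Ltf, Ngp, Elane, Retnlg and Stfa2l1. Python 3.11.15 made tables and plots.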

Additional observations from a re-analysis of the deposited data

Results flagged for a closer look

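Of 90 genes checked, 10 had 1 control mouse far from the other 3 on the log2 CPM scale, by the gap to the nearest mouse over the range (beyond Dixon's 95% critical value). Chance gives about 1 in 20. Control mouse 1 was high for Col1a1 (0.987, 166.6 CPM against 126.4 to 126.9), Blvrb (0.927, 33.9 against 17.0 to 17.9) and Mrc1 (0.831, 44.1 against 33.7 to 35.3), and low for the macrophage gene Adgre1 (0.924, 8.89 against 20.4 to 21.9). Control mouse 2 was high for Jak1 (0.89, 265.5 against 208.4 to 214.0) and Cyp3a11 (1.0, 3.58 against 0). Control mouse 3 was high for Orm1 (1.0, 1 count against 0). For Orm1 and Cyp3a11 the other 3 mice were at 0, so the value of 1.0 follows by construction, and for Orm1 from a single count. Control mouse 4 was low for Il6st (0.923, 214.4 against 244.3 to 247.0), Per1 (0.868, 81.8 against 183.5 to 207.4) and Krt8 (0.831, 0 against 1.18 to 1.65).

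Outside the gene counts, Notch3-/- mouse 1 held 18 ERCC spike-in counts, all in 1 of its 3 libraries, against 2 to 4 in the control mice and 1 and 2 in the other Notch3-/- mice.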

How the results depend on the processing

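In the 7 mice edgeR called 1 gene and 0 members. DESeq2 called 601 genes and 4 members, edgeR with no expression filter 639 genes and 4 members, and limma-voom on the 21 libraries 65 genes and 0 members. With the technical library number as a replicate block, limma-voom called 62 genes and 0 of the 4 members it tested. Libraries with the same number did not deviate together across genotypes (Pearson r of -0.0848, -0.0189 and -0.0372 over 10728 genes). With the mice labelled k only, edgeR called 0 genes. Leaving out each mouse in turn gave 1 to 936 genes and 0 to 5 members, the highest without Notch3-/- mouse 3. The cause of these differences was not tested.

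Of 88 alternative values for the log2 fold changes of the 6 tested members, 77 kept direction and side of the threshold, 9 passed it and 2 reversed: Hp at -0.85 without Notch3-/- mice 1 and 2, a setting chosen after seeing the data that leaves 1 Notch3-/- mouse, and Lcn2 at -0.12 with the mice labelled k only. Requiring at least 10 counts in every mouse left only Mt1 and Mt2 in the test. Depth limits Saa1, Saa2, Saa3 and Orm1 most, since control mice held at most 2 counts of each. Without Krt8 and Krt18, a choice made after seeing the data, the Pearson r with mesothelial genes went from -0.922 to -0.839 for Mt1 and from -0.802 to -0.856 for Mt2.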
